A study of Drosophila melanogaster with 8 samples.

Results

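The 62 genes described here had their highest transcript levels at 25°C, with lower levels in the heads of flies kept both colder and warmer. They include all 3 yolk protein genes, the methyltransferase gene Gnmt, the innate immune genes Sting, Srg3 and Vago, the insulin target tobi and 7 cytochrome P450 genes. A transcript was taken when both 25°C libraries lay above all 6 other libraries and its mean at 25°C was at least 0.4 log2 units above the means at 18°C and at 29°C, provided that its scaled values averaged at least 5, with 1 transcript kept per gene. These 62 genes make up 0.921% of the 6731 genes with such a level, out of 11500 genes in the table. The genes were thus chosen by their difference between 25°C and the other temperatures in all 8 libraries, and that difference is given below as a description without a test.

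The series holds polyA+ RNA-seq of whole heads of Canton-S flies, a wild-type strain, kept at a cool (18°C), an intermediate (25°C) or a warm (29°C) temperature. Each temperature was sampled once at ZT3 and once at ZT15, and 18°C and 29°C were also sampled late at night, which gives 3, 2 and 3 libraries, where ZT counts hours from lights on. The late-night libraries are labelled ZT23, whereas the methods of the study give ZT21, and there was no late-night library at 25°C. The study describes the flies of these libraries as entrained at the 3 temperatures, and the labels describe them as grown at different temperatures. The time points stood in for the replicates of a temperature, so the spread between them includes changes over the day, and the labels give neither the sex nor the age of the flies.

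Values are average coverage per base of a transcript, scaled so that each library sums to 1000000, and they are called scaled values below. Because they are per base, levels can be set side by side between genes. Differences are of log2(scaled value + 1), so that changes of low genes are understated. Values at a temperature are always given in the order ZT3, ZT15 and, at 18°C and 29°C, late night. The deposited sums per library lay between 92886 and 108550, and the read depth is unknown. Photoreceptor markers summed to between 10904 and 24789 in every library, and Rh3 was not analysed here. The 29°C ZT15 library stood apart from the others. It had 590 transcripts at 0 against 1435 to 1612 elsewhere, and its midgut markers summed to 836 against 3.02 to 5.63 elsewhere. Its accessory gland and testis markers summed to 788 against 50.2 to 77.2 elsewhere, and its ovary markers to 187 against 33.0 to 45.7 elsewhere. Without that library 73 genes met the rule.

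Flies cannot hold their body temperature, and their metabolism, reproduction and immunity change with that of the surroundings. The fat body, which surrounds the brain inside the head capsule, is the insect counterpart of liver and adipose tissue. It secretes yolk proteins, lipid carriers and immune factors into the hemolymph, and it responds to insulin-like peptides released by the brain. In RNA from whole heads, a lower number of cells of one type and less RNA per cell cannot be told apart.

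Most of the 62 genes stood only modestly apart. The margin, which is the 25°C mean minus the larger of the other means, had a median of 0.58 and ran from 0.40 to 1.95 on the log2 scale. It was at least 1 for 9 genes and under 0.6 for 31. Yp3, Yp2 and Cyp6w1 were the 3 genes in which the lower 25°C library was at least 2 times the highest library of the other temperatures. Just inside the threshold lay CG4594, alpha-Est7 and CG5162, with margins of 0.403, 0.406 and 0.411. Just outside it lay MFS14, CG7997 and CG15739, with margins of 0.399, 0.396 and 0.396. The mirrored rule, with both 25°C libraries lowest, took 139 genes, or 2.07% of the same 6731. For 48 of the 62 genes the table lists a single transcript, and in the other 14 every listed transcript met the rule. Scaling to the 75th percentile of each library shifted the median difference of all genes by 0.13 and gave 138 genes, 61 of them among the 62, and quantile normalization shifted it by 0.14 and gave 133, 60 of them shared. Without the 25°C ZT3 library, 105 genes met the rule.

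**Figure D1:**
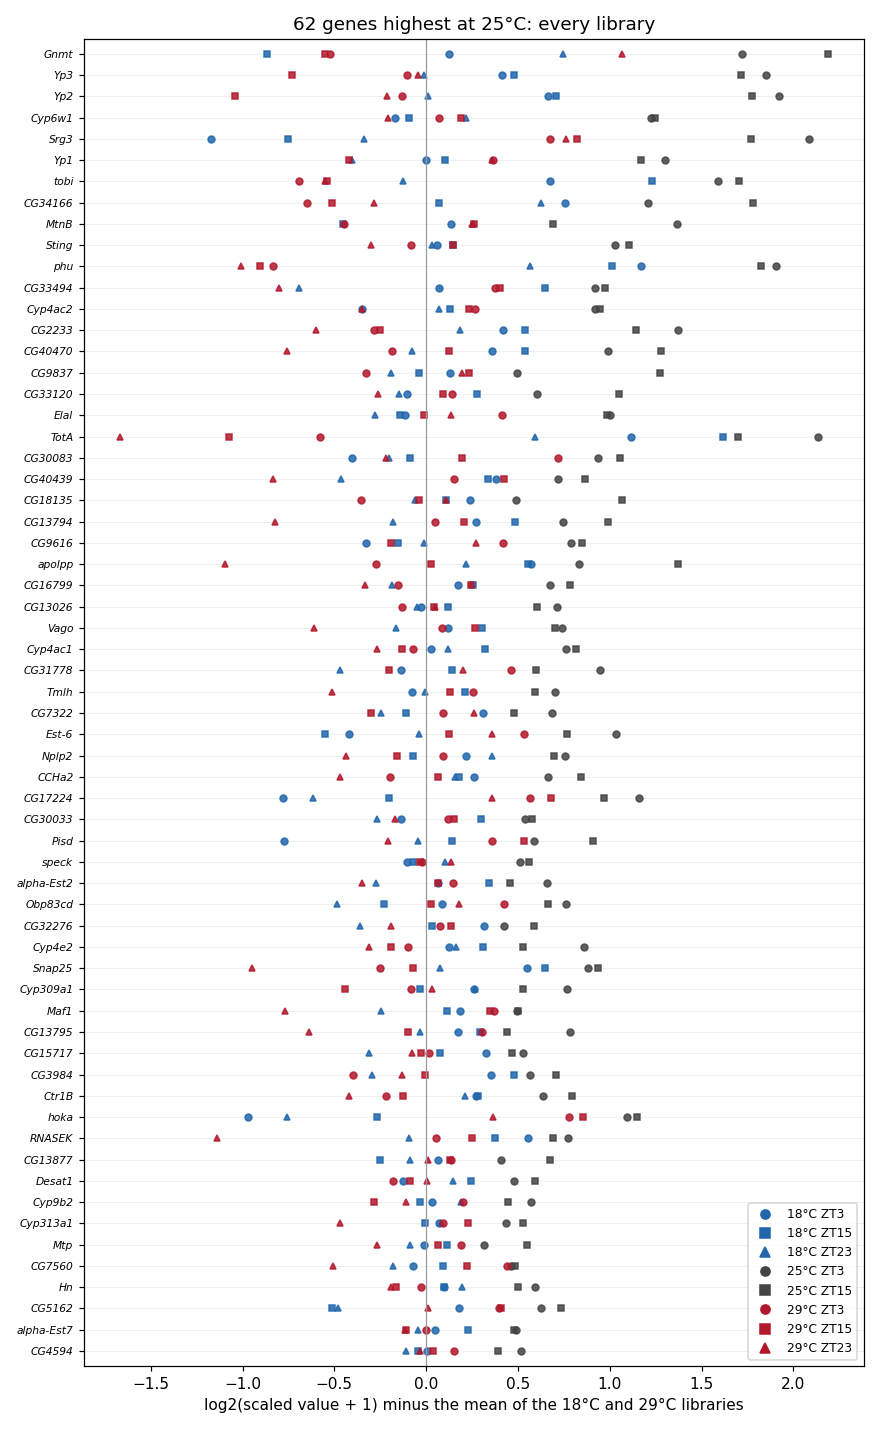
Each row is 1 of the 62 genes, ordered by margin, and each point is 1 library, placed by its log2(scaled value + 1) minus the mean of the 18°C and 29°C libraries of that gene. Colours are temperatures and symbols are time points. The 25°C points lie to the right of all others in every row because the rule requires it. The 29°C late-night library is the lowest of all for 29 genes, a count that the rule helps to set (21.8% over all 6731 genes).

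The most abundant members were Yp1, Yp2 and Yp3, all yolk protein genes, together with Nplp2. The yolk protein genes encode the major proteins of egg yolk, which the fat body of females and the ovary produce. Yp3 had scaled values of 6424, 6723 and 4802 at 18°C, 17426 and 15845 at 25°C and 4502, 2917 and 4681 at 29°C. Yp2 had 5517, 5685 and 3503 at 18°C, 13183 and 11894 at 25°C and 3178, 1694 and 3005 at 29°C. Yp1 had 7093, 7606 and 5363 at 18°C, 17471 and 15942 at 25°C and 9126, 5304 and 9086 at 29°C. In all of them both 25°C libraries lay far above the rest, and the 29°C libraries lay below those of 18°C for Yp2 and Yp3 but overlapped with them for Yp1. The 25°C mean was 3.32 times the mean of the other 6 libraries for Yp3, 3.33 times for Yp2 and 2.30 times for Yp1.

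Together the yolk protein genes took 4.81% and 4.37% of the whole signal at 25°C, against 0.991% to 2.00% in the other libraries. All 62 genes took 6.67% and 6.19% at 25°C, against 1.97% to 3.12% elsewhere. Yp1, Yp2, Yp3 and Nplp2 held between 78.9% and 87.9% of that sum, so the summed level of the 62 genes is largely theirs. Yp1 and Yp2 are neighbours on the X chromosome, with no other gene starting between them in the BDGP6 annotation.

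Yolk protein transcripts are made by females, and the sex of the flies is not given. Of the markers of males, Cyp4d21, a P450 gene expressed mainly in males, had 16.3, 36.5 and 39.3 at 18°C, 29.5 and 76.5 at 25°C and 20.8, 50.05 and 22.8 at 29°C. It differed by 0.71 ± 0.47 (SE) between 25°C and the mean of 18°C and 29°C, with an adjusted p of 0.399 (limma). The corresponding difference was 0.58 ± 0.20 for sxe2, another gene with male-biased expression in the head (adjusted p = 0.190), and −0.04 ± 0.15 for the dosage compensation gene msl-2 (adjusted p = 0.893). Summed, these 3 markers had 173 and 215 at 25°C, against 78.2 to 144 at 18°C and 149 to 178 at 29°C. The sums at 25°C thus overlapped those at 29°C. On the wider list of sex-biased and dosage compensation genes, 11 were tested, of which tobi met the rule, and the other 10 had a median of −0.16, with none called. Among these, Sxl, the master switch of female development, differed by −0.57 ± 0.19, fru by −0.30 ± 0.25 and the dosage compensation genes msl-1, msl-3 and mle by −0.15 ± 0.14, −0.17 ± 0.13 and −0.17 ± 0.13 (SE, adjusted p = 0.190, 0.502, 0.558, 0.498 and 0.496, limma). On the same list tra differed by −0.38 ± 0.12, whereas dsx was higher at 25°C by 0.29 ± 0.19 (SE, adjusted p = 0.189 and 0.405, limma). The part of the sex ratio in the yolk protein levels was not tested. The transcripts of roX1, roX2 and fit were not analysed here.

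**Figure D2:**
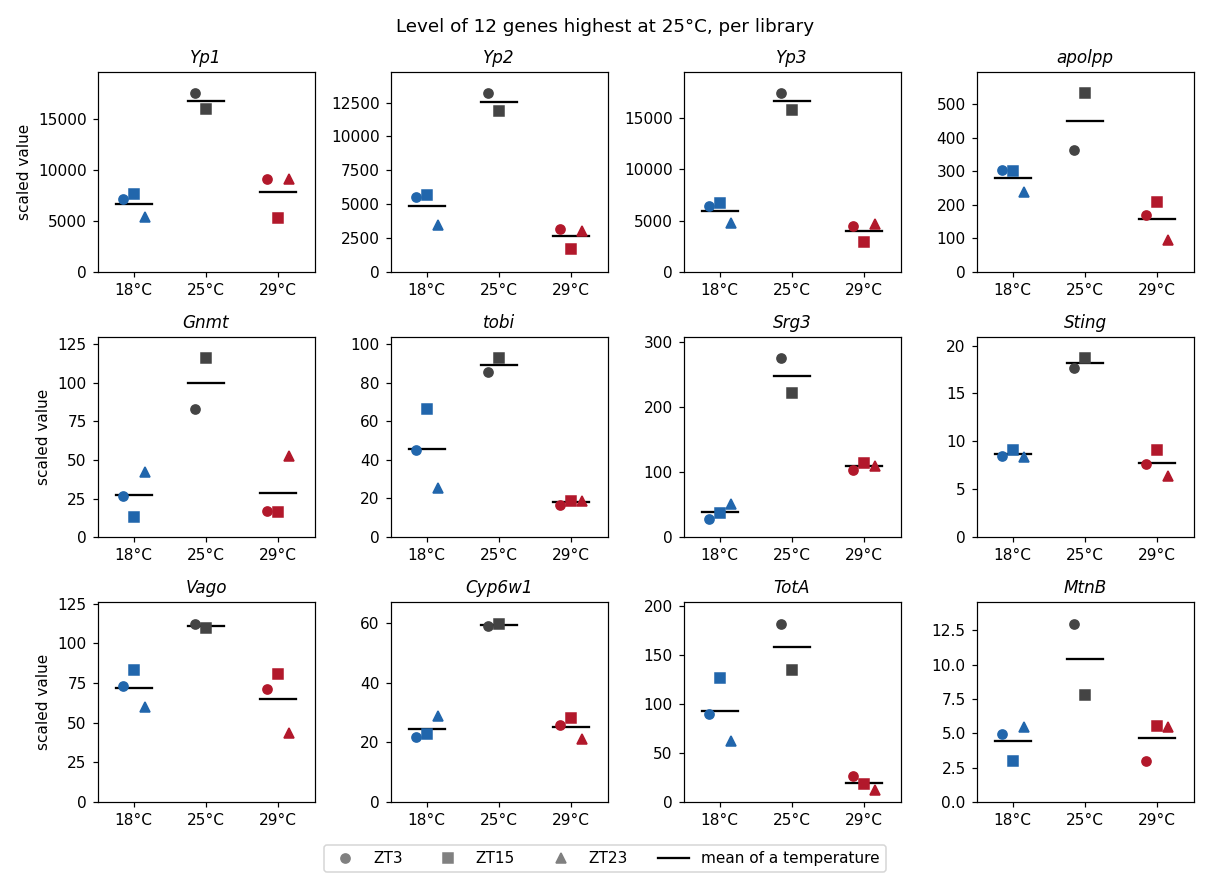
Scaled value (linear axis from 0) of 12 of the genes in every library, by temperature, with circles for ZT3, squares for ZT15, triangles for the late-night libraries and a line at the mean of each temperature. The 18°C and 29°C points of Cyp6w1 and Sting overlap, whereas tobi and TotA are lower at 29°C than at 18°C and Srg3 is higher.

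Among other products of the fat body, apolpp, Mtp and Nplp2 met the rule. The gene apolpp encodes apolipophorin, the protein core of the lipid carrier of the hemolymph, and had 305, 301 and 239 at 18°C, 365 and 533 at 25°C and 169, 209 and 95.4 at 29°C. The microsomal triglyceride transfer protein Mtp, which loads lipid onto that carrier, had 22.8, 25.0 and 21.6 at 18°C, 28.8 and 34.2 at 25°C and 26.4, 24.1 and 19.0 at 29°C. Nplp2, which encodes a secreted peptide precursor found in the hemolymph, had 7304, 5975 and 8078 at 18°C, 10624 and 10180.3 at 25°C and 6696, 5637 and 4652 at 29°C. The lower 25°C library exceeded the highest other one by much less in these genes than in the yolk protein genes. Desat1, the fatty acid desaturase that puts a double bond into saturated acyl chains, reached 1288 and 1396 at 25°C, with 847 to 1095 at 18°C and 814 to 928 at 29°C, and its 5 listed transcripts all met the rule.

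Of 29 tested genes on a list of fat body storage proteins and lipid carriers, the 3 above met the rule. The median difference between 25°C and the other temperatures was −0.05 over the other 26, against −0.10 over the 6669 genes outside the 62, and medians of lists below likewise leave out the members. The storage protein gene Lsp1beta had 20.5 and 52.5 at 25°C, with 3.77 to 9.21 at 18°C and 14.95 to 29.7 at 29°C, so its 25°C and 29°C libraries overlapped (difference 1.35 ± 0.41 SE, adjusted p = 0.189, limma). Its relatives Lsp1alpha and Lsp1gamma were low, at or under 4.25 in every library, with their highest values at 18°C. Lsp1gamma differed by −0.67 ± 0.33 (SE, adjusted p = 0.281, limma), and Lsp1alpha was too low to be tested. Of the defining markers of fat body, Fbp1 and Fbp2 were low throughout, at or under 1.44 in each 25°C and 29°C library and up to 16.9 at 18°C. Lsp2 was not analysed here. The summed markers were 367 and 533 at 25°C, against 240.5 to 327 at 18°C and 95.7 to 209 at 29°C. They are mainly apolpp, which is a member, so the rule largely set that order. The part of fat body amount in these levels was not tested.

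A pair of members belong to the signalling between fat body, nutrition and the insulin-producing cells. The gene tobi encodes an alpha-glucosidase-like protein, and its transcript in the fat body is a target of brain insulin. It had 44.9, 66.4 and 25.3 at 18°C, 85.3 and 92.5 at 25°C and 16.8, 18.7 and 18.6 at 29°C, with the libraries of the 3 temperatures in separate ranges. CCHa2, a peptide hormone that in larvae acts on the insulin-producing cells of the brain, had 64.6, 61.0 and 60.1 at 18°C, 85.7 and 97.1 at 25°C and 46.8, 56.3 and 38.6 at 29°C. Of 20 tested genes on the list of insulin, TOR and starvation genes only tobi met the rule, and the median of the other 19 was −0.08. Ilp5, one of the insulin-like peptides of the brain, had 53.4, 46.6 and 39.0 at 18°C, 60.5 and 53.6 at 25°C and 20.6, 13.4 and 14.7 at 29°C. The lower 25°C library of Ilp5 lay just above its highest 18°C library, and its 29°C libraries were far lower. For Ilp5 the difference between 25°C and the mean of the others was thus mainly one from 29°C. It was 1.04 ± 0.18 (SE) with an adjusted p of 0.148, and Ilp2 differed by 0.46 ± 0.17 (adjusted p = 0.201, both limma).

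Sting, Srg3 and Vago, all genes of innate immunity, met the rule. Sting encodes the receptor for cyclic dinucleotides that starts an antiviral and antibacterial response, and Srg3 is named as a gene regulated by it. Sting had 8.50, 9.10 and 8.33 at 18°C, 17.6 and 18.7 at 25°C and 7.63, 9.10 and 6.40 at 29°C, so that the 25°C mean was 2.22 times that of the other libraries and the 18°C and 29°C libraries overlapped. Srg3 had 27.9, 37.6 and 50.5 at 18°C, 275 and 221 at 25°C and 103, 114 and 109 at 29°C, with no overlap between any of the temperatures. Vago, a secreted factor induced by viral infection, had 73.0, 83.1 and 59.7 at 18°C, 112 and 109.8 at 25°C and 71.4, 80.8 and 43.5 at 29°C. Sting overlaps exons of Orc6 and Vago those of CG2076 in the BDGP6 annotation, so reads of these neighbours could have been counted with them.

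Other genes of antiviral defence did not follow. On a list of STING and antiviral genes written after the members were known, 9 were tested, and 3 of them are the genes above. Rel, the NF-κB factor downstream of STING in flies, had 38.1 and 34.8 at 25°C, against 37.4 to 39.2 at 18°C and 35.6 to 38.9 at 29°C. The RNA interference genes r2d2, Dcr-2 and AGO2 differed by 0.20 ± 0.14, −0.04 ± 0.19 and −0.32 ± 0.11 (SE) between 25°C and the other temperatures, with adjusted p of 0.434, 0.913 and 0.190 (limma). Srg2 and Nazo, also known as STING-regulated, were at or under 1.01 in every library except 29°C ZT15, where they had 11.5 and 4.27.

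TotA, a secreted stress factor induced by JAK/STAT signalling, was the only member on a list of 38 tested genes of humoral immunity. It had 89.4, 127 and 61.9 at 18°C, 182 and 134 at 25°C and 26.9, 18.8 and 12.1 at 29°C, so the highest 18°C library came close to the lower 25°C library. Its relative TotC had 59.6, 105 and 49.1 at 18°C, 130.2 and 50.9 at 25°C and 18.0, 8.68 and 9.39 at 29°C, and the 25°C ZT15 library fell among those of 18°C (difference 1.501 ± 0.41 SE, adjusted p = 0.189, limma). The other 37 genes of the list had a median of 0.15, against −0.10 over all genes outside the 62. PPO2, a prophenoloxidase of crystal cells, was the only gene outside the 62 that passed limma's threshold for 25°C against the mean of 18°C and 29°C, where 0.104% of the 6731 genes and 0.0541% of the transcripts did. It was no peak at 25°C. PPO2 had 8.95, 9.23 and 8.37 at 18°C, 37.4 and 40.1 at 25°C and 46.2, 47.7 and 45.5 at 29°C, so that 25°C lay near 29°C (difference 0.88 ± 0.10 SE, adjusted p = 0.0329). This call was lost without any 1 of the 3 libraries at 18°C, 25°C ZT3, 29°C ZT3 or 29°C late night, and over its 17 alternatives the adjusted p ran from 0.00524 to 0.318.

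Of the cytochrome P450 genes, heme enzymes that oxidize hormones, fatty acids and toxic compounds, 7 met the rule. Cyp6w1 had 21.7, 22.95 and 28.7 at 18°C, 58.8 and 59.8 at 25°C and 25.8, 28.2 and 21.1 at 29°C, with the 18°C and 29°C libraries overlapping. The neighbours Cyp4ac1 and Cyp4ac2 lie next to each other on arm 2L. Cyp4ac2 had 3.67, 5.51 and 5.26 at 18°C, 10.3 and 10.5 at 25°C and 6.17, 6.004 and 3.67 at 29°C. Cyp4ac1 had 22.2, 27.5 and 23.8 at 18°C, 37.7 and 39.2 at 25°C and 20.7, 19.8 and 18.0 at 29°C. The 29°C and 18°C libraries overlapped for Cyp4ac2 but not for Cyp4ac1, and how reads common to similar genes were assigned is not given in the sources used here. Cyp4e2, Cyp309a1, Cyp9b2 and Cyp313a1 had smaller margins, of 0.49, 0.48, 0.45 and 0.43, and Cyp313a1 had 133 and 142 at 25°C with 97.7 to 104 at 18°C and 70.6 to 115 at 29°C.

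The P450 genes that did not meet the rule were counted by gene symbol after the data had been seen. Of these 34 genes with a mean of at least 5, 28 had a higher mean at 25°C than the mean of 18°C and 29°C, whereas 30.4% of the 6669 genes outside the 62 did, and their median difference was 0.20. Such a difference is not a peak at 25°C, because a gene that is only low at 29°C or only low at 18°C has it too. The count was 31 of 34 under both scaling to the 75th percentile and quantile normalization, which put 54.9% and 57.0% of the 6669 genes above 0. On the list of detoxification enzymes, which also holds other enzyme families, 7 of 32 tested genes met the rule and the median of the other 25 was 0.22. None of these 25 genes was called by limma for 25°C against the other temperatures, and neither was any but 1 of the 6669. Between 29°C and 18°C, limma called 12 of the 32 lower and 1 higher at 29°C, against 17.3% and 13.8% of all 6731 genes.

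**Figure D3:**
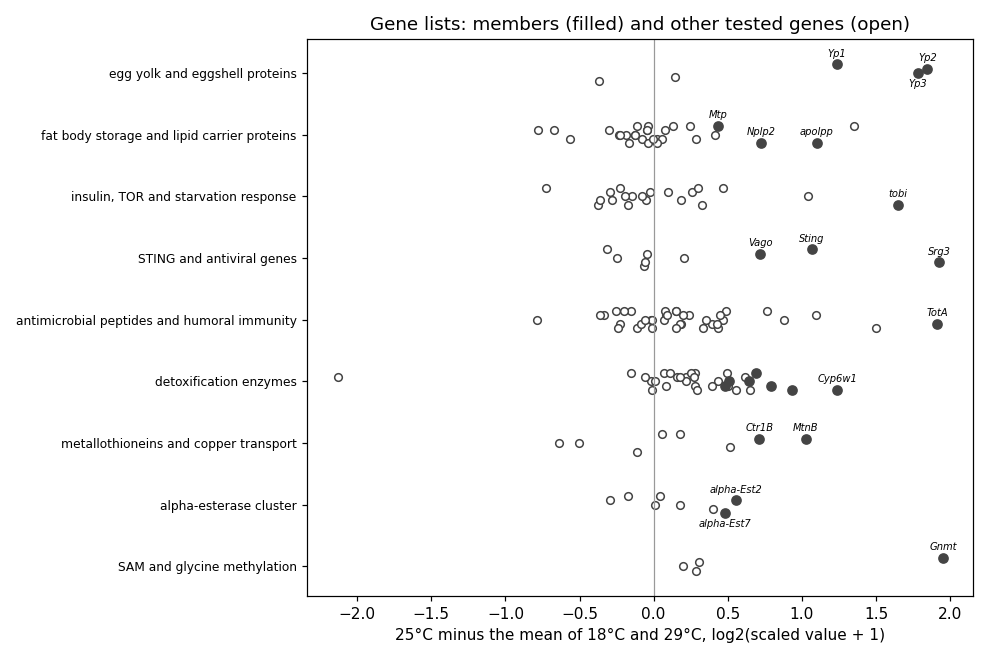
Each point is a tested gene on 1 of 9 lists, placed by its difference between 25°C and the mean of 18°C and 29°C in log2(scaled value + 1), with filled points for members and open points for other genes. Members lie at 0.4 or more by construction. Lsp1beta, an open point of the fat body list at 1.35, lies further right than the members of that list, whereas its relative Lsp1gamma lies at −0.67. The open points have medians of 0.22 for the detoxification list, −0.05 for the fat body list and −0.08 for the insulin list.

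Carboxylesterases were represented by alpha-Est2 and alpha-Est7 of the cluster of alpha-esterase genes on arm 3R, and by Est-6, which in the antenna breaks down ester odorants. alpha-Est7 had 119, 135 and 111 at 18°C, 162 and 160.3 at 25°C and 115, 106 and 106 at 29°C, close to the threshold of the rule. alpha-Est2 had 16.7 and 14.4 at 25°C, with 8.32 to 13.3 at 18°C and 7.84 to 11.4 at 29°C. Of 8 tested genes of that cluster, listed after the members were known, these 2 met the rule, and the median of the other 6 was 0.03. Est-6 had 104, 94.9 and 136 at 18°C, 287 and 238 at 25°C and 202, 152 and 179.7 at 29°C, in separate ranges. The gene phu, annotated as an alkaline phosphatase, had 29.4, 26.2 and 19.0 at 18°C, 49.5 and 46.7 at 25°C and 6.56, 6.21 and 5.73 at 29°C. It was the gene with the clearest order of 25°C, 18°C and 29°C, and both of its listed transcripts met the rule.

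Among genes of metal handling, the metallothionein gene MtnB and the copper importer gene Ctr1B met the rule. MtnB was low, with 4.97, 2.97 and 5.48 at 18°C, 12.99 and 7.77 at 25°C and 2.98, 5.52 and 5.47 at 29°C, and its 25°C libraries differed from each other. Ctr1B had 11.2, 11.3 and 10.7 at 18°C, 14.7 and 16.5 at 25°C and 7.68, 8.25 and 6.55 at 29°C. The far more abundant MtnA did not peak at 25°C. It had 1848, 1952 and 2493 at 18°C, 3599.8 and 4116 at 25°C and 5506, 4863 and 6381 at 29°C. MTF-1, the transcription factor for both kinds of gene, differed by −0.12 ± 0.16 (SE) between 25°C and the other temperatures (adjusted p = 0.707, limma).

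Gnmt had the largest margin of all. Its product, glycine N-methyltransferase, uses up S-adenosylmethionine, the methyl donor of the cell, and is abundant in the fat body. Gnmt had 26.9, 13.1 and 42.0 at 18°C, 83.3 and 116 at 25°C and 16.8, 16.5 and 52.7 at 29°C. The late-night libraries were the highest of their temperature at both 18°C and 29°C, and 25°C had no late-night library. At matched times, the difference from 18°C was 1.59 at ZT3 and 3.05 at ZT15, and that from 29°C was 2.24 at ZT3 and 2.74 at ZT15. Of the other 3 genes on a short list of this pathway, written after the members were known, none met the rule. Sam-S, which makes S-adenosylmethionine, differed by 0.30 ± 0.13 (SE) between 25°C and the mean of 18°C and 29°C, Ahcy by 0.28 ± 0.28 and Sardh by 0.20 ± 0.40, with adjusted p of 0.225, 0.575 and 0.799 (limma).

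Further metabolic members had small margins. Hn, the phenylalanine hydroxylase that also serves eye pigment synthesis, had 246, 246 and 263 at 18°C, 347 and 326 at 25°C and 226, 205 and 201 at 29°C. The gene speck encodes an arylalkylamine N-acetyltransferase that inactivates dopamine and serotonin, and had 97.7, 99.8 and 113 at 18°C, 150.3 and 155 at 25°C and 103, 103 and 115 at 29°C. Tmlh (trimethyllysine hydroxylase, an enzyme of carnitine synthesis) had a margin of 0.60, and Pisd (phosphatidylserine decarboxylase) a margin of 0.52. On the list of amino acid, sugar and one-carbon enzymes, 2 of 45 tested genes, Gnmt and Hn, met the rule, and the other 43 had a median of −0.01.

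Snap25, a SNARE protein of synaptic vesicle release, was the single member among 18 tested neuron markers. It had 109, 117 and 78.5 at 18°C, 138 and 143 at 25°C and 62.3, 70.7 and 37.97 at 29°C. The defining neuron markers elav, nSyb, brp, Syt1 and para moved otherwise, with sums of 275 and 438 at 25°C, against 476 to 585 at 18°C and 438 to 529 at 29°C. The other 17 markers had a median of −0.22. Snap25 has a further property in common with other members. Its gene number is CG40452, and the numbers of this series were mostly given to genes in heterochromatin. Of 16 genes numbered so, 9 had a 25°C mean above both other means, and the others were lower at 25°C than at 18°C. Among the 16, 5 met the rule, against 0.921% of all 6731 genes, namely Snap25, RNASEK (ribonuclease kappa), Maf1 (a repressor of RNA polymerase III), CG40439 and CG40470.

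In these 5 genes the 29°C late-night library was the lowest of all 8, and the 18°C late-night library was the lowest at 18°C. RNASEK had 172, 152 and 109 at 18°C, 200.1 and 189 at 25°C and 121, 139 and 52.4 at 29°C, and Maf1 had 27.8, 26.4 and 20.3 at 18°C, 34.6 and 34.8 at 25°C and 31.7, 31.3 and 13.9 at 29°C. The late-night 29°C value was far below the other 29°C values in both. CG40470 had 7.50, 8.62 and 5.27 at 18°C, 12.1 and 15.05 at 25°C and 4.82, 6.21 and 2.91 at 29°C. The 29°C late-night library was also the lowest of all in 10 of the 11 genes of the number series that did not meet the rule. Over all 6731 genes this library was the lowest for 21.8%. Over the 62 members it was the lowest for 29, a count that the rule helps to set, because it keeps the 25°C libraries from being lowest and favours genes that are low at 29°C.

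The 25 members known by their CG number alone and a few others made up the rest. CG34166 had 98.3, 60.6 and 89.5 at 18°C, 135 and 200.5 at 25°C and 36.5, 40.1 and 47.1 at 29°C. CG2233, the fifth most abundant member, had 1186, 1285 and 1005 at 18°C, 2289.9 and 1954 at 25°C and 727, 744 and 584 at 29°C. In both, the 3 temperatures did not overlap, with 29°C lowest. CG33494 had 31.0 and 32.2 at 25°C, 9.46 to 25.5 at 18°C and 8.68 to 21.3 at 29°C, and was lowest in the late-night libraries. CG9837 had 29.5 and 51.5 at 25°C, 18.0 to 22.8 at 18°C and 16.3 to 24.5 at 29°C. CG33120 had 17.8 and 24.7 at 25°C, 10.2 to 14.0 at 18°C and 9.33 to 12.7 at 29°C. For both of these the 25°C ZT15 library was well above the 25°C ZT3 library.

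CG30083, at 9.44 and 10.3 at 25°C, had 3.11 to 4.13 at 18°C and 3.69 to 7.98 at 29°C, and Elal had 131 and 130.2 at 25°C, 53.7 to 60.3 at 18°C and 64.7 to 87.3 at 29°C. The odorant-binding protein gene Obp83cd had 11.1 and 10.3 at 25°C, 4.12 to 6.60 at 18°C and 6.29 to 8.63 at 29°C, and it was the only member on a list of 29 tested chemosensory genes. CG13794 and CG13795 are neighbours on arm 2L, with margins of 0.67 and 0.47. The remaining members, CG18135, CG9616, CG16799, CG13026, CG31778, CG7322, CG30033, CG32276, CG15717, CG3984, CG13877 and CG7560, had margins between 0.42 and 0.68. No member was found on the lists of heat shock proteins and chaperones, phototransduction, the circadian clock, muscle, glia, ribosomal proteins, cuticle proteins or proteasome subunits. These lists held between 12 and 82 tested genes each. Since members are 0.921% of the 6731 genes, absence from a list of such a size says little.

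The rule does not say which of the outer temperatures is higher, so the sign of the difference between 29°C and 18°C was left free. The rule did use the libraries of both, which all had to lie below those of the intermediate temperature. It thereby disfavours genes that vary much within a temperature. The limma calls and p-values of the members for this comparison are therefore a description. Among the 62 genes, 4 rose and 10 fell at 29°C relative to 18°C (limma over 14799 transcripts, Benjamini-Hochberg adjusted p under 0.05). These are 6.45% and 16.1% of the members, and over all 6731 genes 13.8% rose and 17.3% fell. The members' shares were not tested against those of all genes. By sign alone, 23 of the 62 were higher and 39 lower at 29°C, and the median difference was −0.09 against −0.05 over all genes. Scaling to the 75th percentile shifted the median of all genes by 0.19 to 0.14, with 41 of the 62 then higher at 29°C, and quantile normalization shifted it by 0.10 to 0.05, with 36 higher. All 14 called members kept their sign under both scalings. With the time point as a block in the fit, 7 members were called higher and 17 lower at 29°C, the 14 genes among them. That fit called 6369 of the 14799 transcripts in all, against 4325 without the block.

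The genes that rose were Srg3, hoka, CG17224 and Est-6. Srg3 had 103, 114 and 109 at 29°C against 27.9, 37.6 and 50.5 at 18°C, a difference of 1.51 ± 0.20 (SE, adjusted p = 0.00151, limma). The gene hoka encodes a component of the septate junctions of gut and renal epithelia, and had 19.9, 21.03 and 14.7 at 29°C, against 5.22, 9.14 and 6.22 at 18°C and 25.0 and 26.0 at 25°C (29°C minus 18°C 1.33 ± 0.20 SE, adjusted p = 0.00225, limma). CG17224 had 13.2, 14.3 and 11.3 at 29°C, against 4.57, 7.32 and 5.25 at 18°C and 20.4 and 17.7 at 25°C (1.07 ± 0.16 SE, adjusted p = 0.00255, limma). In these genes the 25°C level lay much nearer to 29°C than to 18°C, and no library of 29°C overlapped one of 18°C. Est-6 rose by 0.68 ± 0.17 (SE, adjusted p = 0.0175, limma), a call that was lost without 18°C ZT3, 18°C ZT15 or 29°C ZT3 (adjusted p = 0.0706, 0.0678 and 0.0660).

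The genes that fell were TotA, phu, tobi, CG34166, Yp2, apolpp, Snap25, CG2233, Ctr1B and Cyp4e2. TotA fell by 2.22 ± 0.32 (SE, adjusted p = 0.00201) and phu by 1.83 ± 0.16 (adjusted p = 0.00052, limma). The fall was 1.19 ± 0.28 for tobi (adjusted p = 0.0153), 0.97 ± 0.21 for CG34166 (adjusted p = 0.0114) and 0.76 ± 0.14 for CG2233 (adjusted p = 0.00590, limma). The call of tobi was lost without 18°C ZT3 or 29°C ZT3 (adjusted p = 0.0622 and 0.0535, limma) and that of CG34166 without 18°C ZT3 (adjusted p = 0.0520). Ctr1B had 7.68, 8.25 and 6.55 at 29°C against 11.2, 11.3 and 10.7 at 18°C, with adjusted p = 0.0105 (limma). In all 10 genes the 29°C libraries lay below the 18°C libraries without overlap. The calls of Yp2 (−0.92 ± 0.27 SE, adjusted p = 0.0309), apolpp (−0.90 ± 0.28, 0.0401), Snap25 (−0.85 ± 0.24, 0.0266) and Cyp4e2 (−0.40 ± 0.12, 0.0401) were lost under both other scalings and in some of the fits without 1 library. Without 18°C ZT3 there were 4 members called lower, without 18°C ZT15 there were 6 and without 29°C ZT3 there were 6, and leaving out the 29°C ZT15 library that stood apart gave 6 higher and 11 lower. Over all transcripts the same fits called 2316, 2688, 2781 and 4405 in either direction, against 4325 with all libraries.

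**Figure D4:**
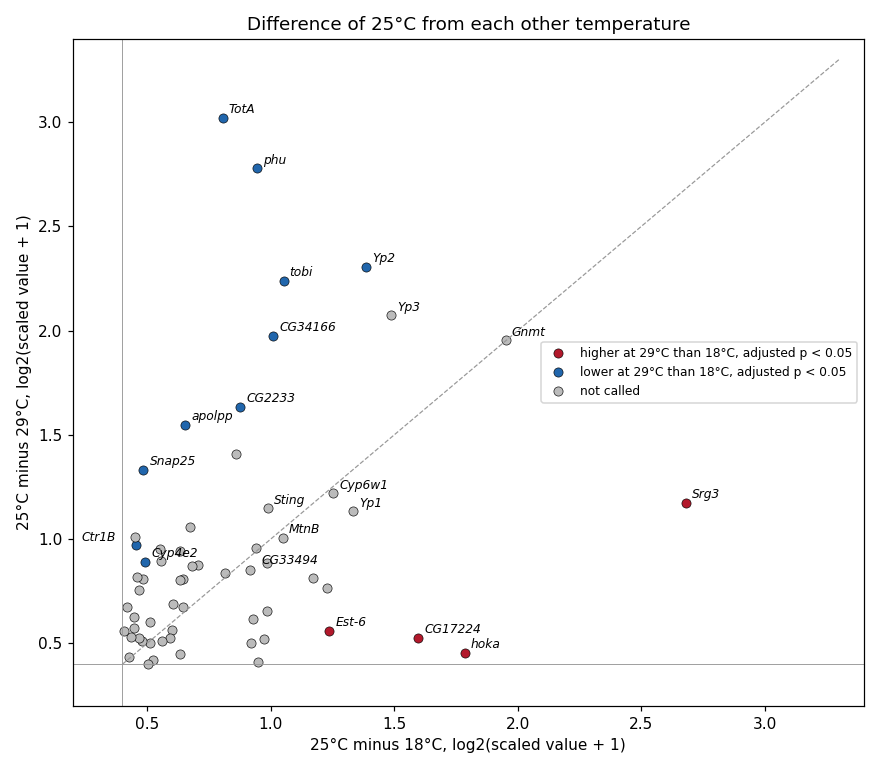
Difference of 25°C from 18°C (horizontal axis) and from 29°C (vertical axis) in log2(scaled value + 1) for the 62 genes, with thin lines at the margin of 0.4 and a dashed line where both differences are equal. Blue points are the 10 genes that fell at 29°C relative to 18°C, red points the 4 that rose, and grey points were not called; TotA and phu lie nearest the top and Srg3 farthest to the right, while Gnmt lies on the dashed line.

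Several leading members had almost the same level at 29°C and 18°C. The difference was −0.00 ± 0.50 (SE) for Gnmt, 0.03 ± 0.14 for Cyp6w1, 0.04 ± 0.27 for MtnB and −0.16 ± 0.13 for Sting, with adjusted p of 0.997, 0.884, 0.918 and 0.376 (limma). Gnmt, whose late-night libraries were the highest at both temperatures, had the widest error of these 4 genes. Yp1 differed by 0.20 ± 0.22 and Yp3 by −0.58 ± 0.20 (adjusted p = 0.523 and 0.0600, limma), so that of the yolk protein genes only Yp2 passed the test, and whether they differ from each other was not tested.

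The rule did not compare ZT15 with ZT3, although by asking for both 25°C libraries above all others it disfavours genes that change much over the day. The members' values for this comparison are therefore a description. For ZT15 against ZT3, tested with temperature in the model, 0 of the 62 genes and 0 of 14799 transcripts were called (limma, 0% of the 6731 genes). At an unadjusted p under 0.05 there were 3506 transcripts, among them 2 members, CG40470 upward (0.26 ± 0.08 SE) and Cyp309a1 downward (−0.30 ± 0.08 SE). At 25°C, 34 of the 62 were higher at ZT15 than at ZT3, with a median difference of 0.03 against 0.08 over all genes. The sign was the same at all 3 temperatures for 25 genes, of which 14 were higher at ZT15, including tobi, Sting, Pisd and hoka, and 11 were lower, including Est-6, Nplp2 and phu.

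Late-night levels were low for many of the members. At 29°C the late-night library was below both others for 40 of the 62 genes, and at 18°C for 38. Over all 6731 genes the shares were 48.3% at 29°C and 39.9% at 18°C. The rule used these libraries, and low values in them help a gene to meet it, so the counts of the members are a description. Since 25°C lacks a late-night library, the rule was also applied to the ZT3 and ZT15 libraries alone. It then took 48 genes, of which 46 are among the 62.

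The members were short transcripts on the whole. Their annotated length in BDGP6 had a median of 1463 bases, with quartiles of 908 and 1823, against a median of 2068 and quartiles of 1282 and 3353 over all 6731 genes. When all genes were split into 4 equal groups by length, there were 29, 25, 7 and 1 members from the shortest to the longest group, the last being apolpp. Genes in general also shifted with length. The median difference between 25°C and the mean of 18°C and 29°C was 0.00, −0.03, −0.12 and −0.27 from the shortest to the longest group. In the longest group the median deviation from the mean of all libraries was −0.36 in 25°C ZT3 and −0.02 in 25°C ZT15, so 1 of the 25°C libraries was low in long transcripts and the other was not. The 139 genes lowest at 25°C had a median length of 5021 bases. The part of this length shift in the membership of the 62 genes was not tested.

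**Figure D5:**
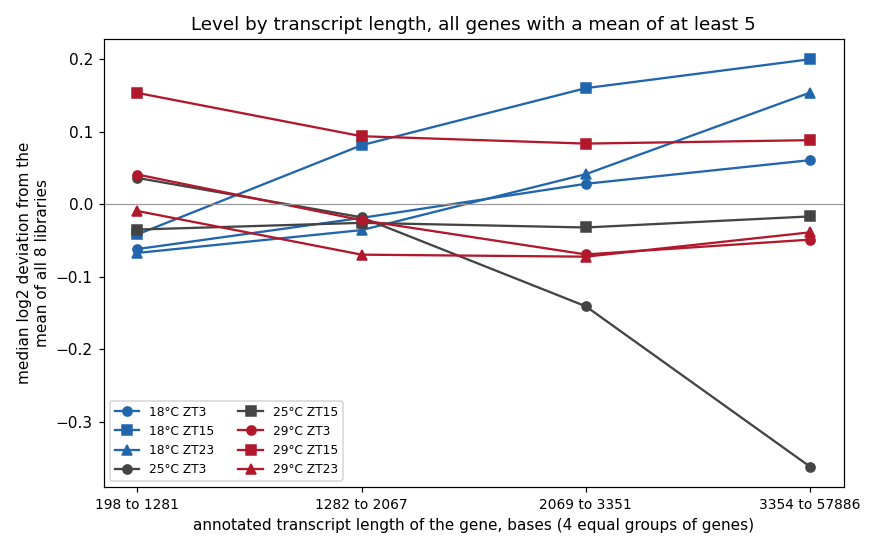
Median deviation (log2) of each library from the mean of all 8 libraries over genes in 4 equal groups of annotated transcript length, for the 6731 genes with a mean of at least 5. The 25°C ZT3 library falls to −0.36 in the longest group, while the 25°C ZT15 library stays at −0.02 there.

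On the chromosomes the members were spread over the X (8 genes), 2L (12), 2R (10), 3L (12), 3R (19) and the fourth chromosome (1, apolpp). Only 3 pairs lay within 20 kb of each other with no gene starting between them, namely Yp1 with Yp2, Cyp4ac1 with Cyp4ac2 and CG13794 with CG13795. In the BDGP6 annotation, 20 members overlap an exon of another gene, among them Gnmt with CG43630 and tobi with rha on the other strand, and whether the coverage was counted by strand is not given in the sources used here.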

How the data were processed

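Paired-end reads were aligned by the authors to dm3, and the deposited signal is the coverage of an annotated transcript averaged over its bases, which is not a read count. The submitters' processing notes name Bowtie2, TopHat and Cufflinks, with no versions or roles, and the handling of reads common to several genes is not given in the sources used here. The deposited table also held 75 columns without a header, which were not used. Read depth is unknown, so no interval for counting error is given and the spread between libraries was the only measure of precision. Nothing in the labels says that the libraries came from separate collections beyond their time points.

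After scaling every library to 1000000 in total, log2(scaled value + 1) was analysed. A limma 3.58.1 model (R 4.3.3) over all 8 libraries covered the 14799 transcripts averaging at least 1, and Benjamini-Hochberg adjusted p under 0.05 were called. Plots were drawn with matplotlib 3.10.9. The fits were also run on simulated data with independent noise for each transcript. Shifts across a whole library were not simulated, so this run does not measure errors that such shifts cause. Of the 11500 genes 11381 had a matched symbol, and arms, neighbours and lengths come from BDGP6, whose coordinates are not those of dm3 and are not printed.

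The genes and the lists were chosen with earlier results of these data known, and 4 lists (STING and antiviral, copper, alpha-esterase and S-adenosylmethionine genes) were written after the members had been seen. Values are given for the 20 members with the largest margin, members on a list, those called between 29°C and 18°C, the 3 on each side of the threshold, sex markers and listed genes called at 25°C. A few further members were named after their values were seen. The alternatives were other pseudocounts, scalings, filters and margins, limma's trend option, matched time points, fewer libraries, a block for the time point and leaving out each library in turn.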

Additional observations from a re-analysis of the deposited data

How the results depend on the processing

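The number of genes meeting the rule depended on the scaling and on single libraries. It was 138 under scaling to the 75th percentile, 133 under quantile normalization, 19 with a margin of 0.8, and between 54 and 105 when 1 library was left out, the highest without 25°C ZT3. For 29°C against 18°C, the members called higher were 8 under the 75th percentile, 7 under quantile normalization and 3 to 6 with 1 library left out, and those called lower were 6 under the 75th percentile and 4 to 11 with 1 library left out. All transcripts called there were 5176 under the 75th percentile and 4839 under quantile normalization, and ranged from 2316 to 4523 with 1 library left out. For ZT15 against ZT3 the 0 calls became 7 with a pseudocount of 5, 5 with a minimum mean of 5 and up to 14 with 1 library left out, none of them a member. For 25°C against the mean of the others, 8 transcripts were called, and 5 with a pseudocount of 0.1, 19 under the 75th percentile, 16 under quantile normalization, 15 with a minimum mean of 5, 3 without a filter, 13 with limma's trend option and 2 at matched time points. With 1 library left out this count ran from 0, without 25°C ZT3, to 1505, without 25°C ZT15, where the lone 25°C library is assumed to vary like the others. Over single genes, 213 of the values under alternatives kept their call, 42 lost it and 0 changed sign, and the cause was not tested.

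When a replicate block for time was added, 7 members were called higher and 17 lower at 29°C than at 18°C, 6369 transcripts were called in all, and 2 were called for 25°C. Without temperature as the block of the time comparison, 0 transcripts were called. Libraries of 29°C and 18°C at the same time point correlated in their deviations with r of 0.0961 at ZT3, 0.16 at ZT15 and 0.31 at late night, and each library correlated best with the one of its own time point, which is a hint from the data and not the design. What limits these values is 1 library per temperature and time, 2 libraries at 25°C and an unknown depth.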
